A study of Paralichthys olivaceus with 24 samples.

Results

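The solute carriers are membrane proteins that move amino acids, sugars, ions, metals, vitamins and metabolites across the cell surface and the membranes of organelles. In muscle they bring in fuel, building blocks and osmolytes, exchange substrates with the mitochondrion, and supply the Golgi and endoplasmic reticulum with the donors used to modify proteins. Most carriers of the inner mitochondrial membrane belong to family 25, and the carriers of nucleotide sugars to family 35. Many cell surface carriers draw on the sodium gradient that the sodium-potassium pump maintains.

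The members were the rows of the deposited table whose name starts with slc and a number, with at least 0.5 RPKM (reads scaled to transcript length and library size) in 1 or more of 4 muscle libraries, leaving out slc2a1b, slc7a5 and slc8a3. There were 58 members among 11646 rows. In all 102 rows had such a name; 42 of them stayed below the minimum, and 2 were left out by name. The third name left out, slc2a1b, is listed under a numbered ID and had no such row. The members belong to 29 numbered families, of which 18 have 1 member, and were grouped by substrate. Of the 58, 2 share the prefix without being carriers. The gene slc7a6os lies on the strand opposite to a carrier gene, and slc9a3r1 encodes a scaffold protein that binds a sodium-proton exchanger.

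The minimum of 0.5 RPKM was reached narrowly by slc47a1, slc7a2 and slc37a4, with maxima of 0.526, 0.540 and 0.684 RPKM. It was missed by slc39a11, slc27a4 and slc39a8, with maxima of 0.439, 0.434 and 0.356 RPKM. The median maximum of the 42 rows below the minimum was 0.0775 RPKM, and 22 of them were listed at 0 in 1 or more libraries.

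Muscle of olive flounder (Paralichthys olivaceus), a marine flatfish, was compared at 12, 18, 23 and 28 °C. The fish were 9 months old and came from 120 animals first acclimated to 12 °C and split into 8 treatment groups of 15. The 4 libraries carry the series letter C in their titles, with 1 library for each temperature, and the other 20 of the 24 samples, from gill, liver and the second series, were not analysed here. Per the labels' protocols, an acute regime moved fish to warmer water at intervals of 3 h, and a chronic one warmed the water by 3 °C per h and then held the temperature for 20 h or longer. No label says which regime the letter C names, no sex or strain is given, and it is not stated how many fish each library pools. No temperature has a second library, so the differences below describe single libraries and have no error estimate.

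Every row of the table passes a 2-fold difference from the 12 °C library in some comparison of the authors (11646 of 11646), so carriers without such a difference are not among the members. The absolute depth is unknown; from the steps between low values, the 18, 23 and 28 °C libraries were 1.004, 0.982 and 1.013 times as deep as the 12 °C library. For 6 members every value could be read as whole reads, within 0.03 of a read, with 30 or fewer reads in the lowest library above 0. Intervals from these smallest readings are exact Poisson 95% intervals and cover counting error only. Of 34 listed skeletal muscle markers 6 are in the table, each at 1 RPKM or more at 12 °C. Their sum was 48156, 20866, 30796 and 38228 RPKM from 12 to 28 °C, with mylpf listed at 0 at 18 °C and atp2a1l at 0 at 23 °C, although the lowest of their other values were 20633 and 14940 RPKM. A listed 0 in this table therefore need not mean few reads, and no limit is given for one. Of the other muscle markers, acta1a was counted as higher at all 3 warmer temperatures (log2 folds 2.55, 2.62 and 2.19). The marker mybpc2a was counted as higher at 18 °C (1.34) and pvalb1 as lower at 28 °C (-1.46). Liver markers, from 40 listed names, fill 29 rows of the table, with itih2 and plg in more than 1 row. Their summed level was 67.4, 4649, 63.5 and 447 RPKM at 12, 18, 23 and 28 °C. Of these rows hamp went the other way, at 16.2, 5.09, 4.13 and 7.32 RPKM, and was the only 1 counted as lower. That of 6 exocrine pancreas markers (of 16 listed) was 10.5, 178, 15.1 and 42.0 RPKM. The part of these tissues in the members' values was not tested. In bulk tissue, fewer cells of a type and less RNA per cell cannot be told apart.

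The members differed in both directions at 28 °C, and mainly downward at 23 °C. Differences are given as log2 folds of RPKM + 1 against the 12 °C library, a scale that makes differences of low genes look smaller. A row was counted as higher or lower when it was at least 2-fold apart on this scale and the mean of the pair of libraries was at least 1 RPKM. At 28 °C, 14 of the 46 members at this minimum were higher (30.4%), against 34.2% of all rows at the minimum, and 13 were lower (28.3%), against 22.5%. Both shares lie near those of the whole table. At 23 °C, 1 of 35 members was higher, against 2.98% of all rows, and 12 were lower (34.3%), against 10.8%. At 18 °C, 2 of 39 members were higher, against 7.66% of all rows, and 2 were lower, against 2.68%. The 3 comparisons share the 12 °C library. Median log2 folds over all 58 members were -0.02, -0.19 and 0.00 at 18, 23 and 28 °C, beside -0.03, -0.17 and 0.07 over the 6527 rows with the same minimum of 0.5 RPKM.

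**Figure D1:**
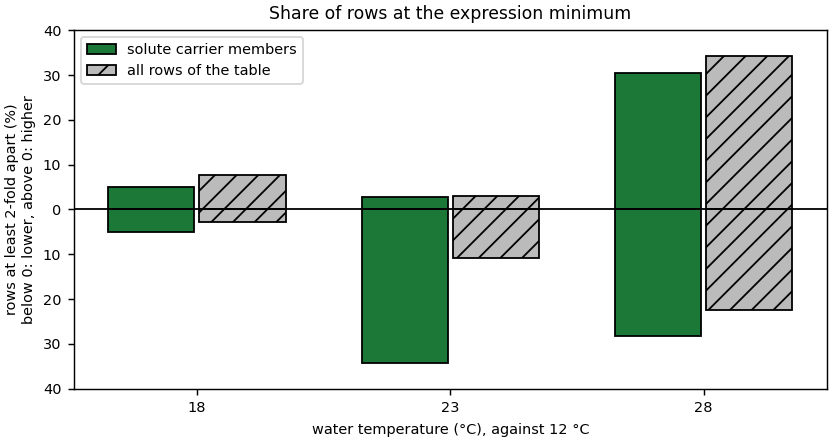
Share of rows (vertical axis, %) at least 2-fold higher (above 0) or lower (below 0) than in the 12 °C library at each warmer temperature (horizontal axis, °C), for solute carrier members (green) and all rows of the table (hatched grey) that met the expression minimum. The lower members at 23 °C make up 34.3%, against 10.8% of all rows.

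The 23 °C library has lower values over the table as a whole. Scaling by median ratios, which sets the typical row equal in all libraries, divides each library by a factor. On the log2 scale this factor is -0.35 at 23 °C and -0.02 at 28 °C relative to that at 12 °C, so the scaling raises the values of both against 12 °C. After this scaling 8 of 38 members were lower at 23 °C (21.1%) and 1 was higher, against 4.89% and 5.61% of all rows. The authors' deposited comparisons use a factor of 1.27 at 23 °C, close to that of the median scaling, but do not add 1 RPKM. In them 11 of 35 members were at least 2-fold lower at 23 °C (31.4%) and 3 were higher, against 11.7% and 12.9% of all rows. The share of lower members stayed above that of all rows in each of these 3 settings. The median scaling and the authors' factor shift the 23 °C library nearly alike, so they are not separate checks of scaling.

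**Figure D2:**
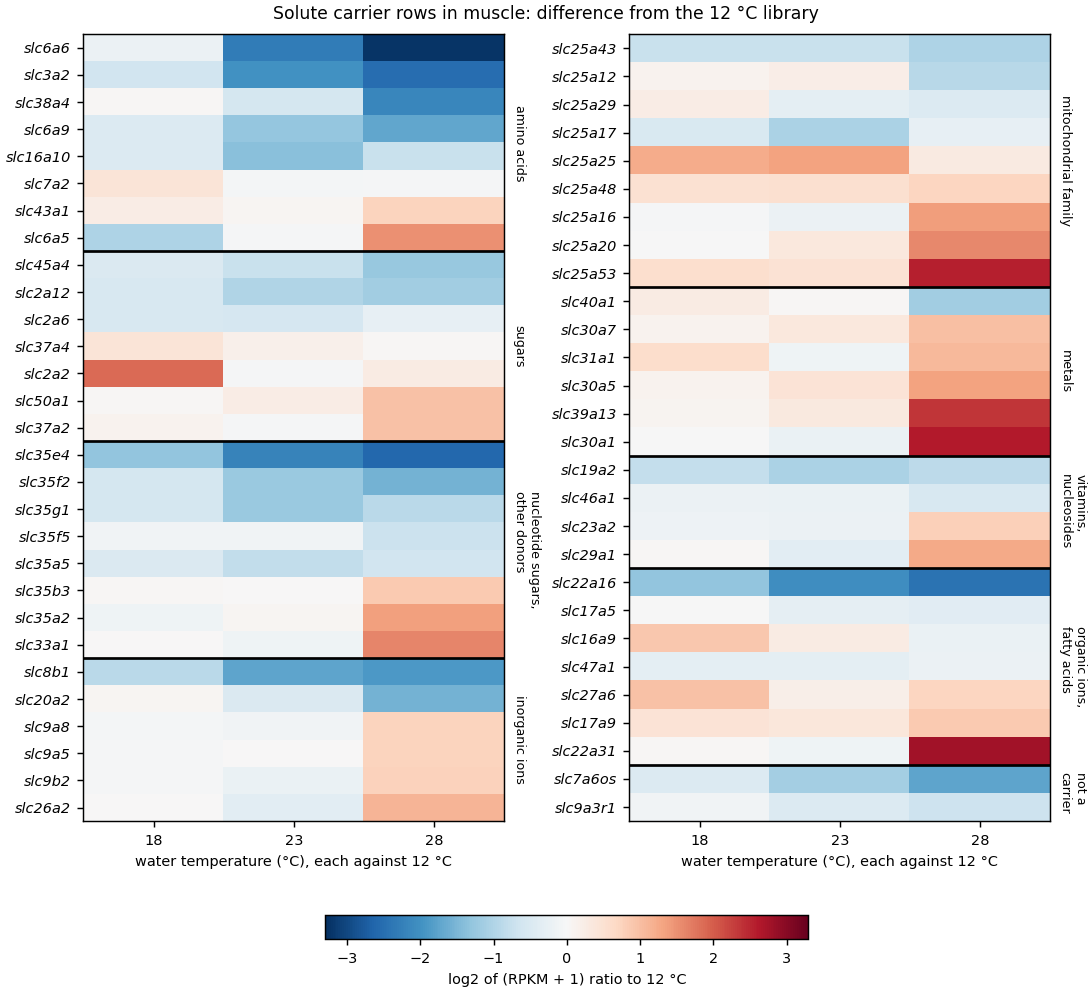
Log2 ratio of RPKM + 1 to the 12 °C library (colour, red higher and blue lower) for 57 members (rows, in substrate groups) at 18, 23 and 28 °C (columns), with 1 library each. The 4 amino acid carriers counted as lower at 28 °C are bluest in that column, while slc16a10 is bluest at 23 °C. The deepest red cells lie in the 28 °C column.

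Amino acid and taurine carriers were the group with the most lower members. Of the 6 at the minimum, 4 were counted as lower (66.7%) and 1 as higher at 28 °C, against 22.5% and 34.2% of all rows, and 4 as lower and 0 as higher at 23 °C, against 10.8% and 2.98%. No substrate group was tested against the rest of the table, and each has 8 or fewer members at the minimum. The group's median log2 fold over its 8 members was -0.32, -0.93 and -1.22 at 18, 23 and 28 °C. The gene slc3a2 encodes the heavy chain that carries several exchangers of amino acids to the cell surface. It was the most abundant member in the 12 °C library, at 153.6 RPKM, and was at 99.5, 37.7 and 26.1 RPKM at 18, 23 and 28 °C. Each library was below the one before it, and the log2 fold at 28 °C was -2.51. The taurine carrier gene slc6a6, whose substrate is an osmolyte of fish muscle, was at 26.4, 23.2, 4.54 and 1.90 RPKM from 12 to 28 °C. Its 12 and 18 °C libraries were close and its 23 and 28 °C libraries far lower, with a log2 fold of -3.24 at 28 °C, the most negative of the 58 members.

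The glycine carrier gene slc6a9 was at 3.11, 2.01, 0.693 and 0.258 RPKM from 12 to 28 °C, lower at each step. The gene of the other glycine carrier, slc6a5, did not share this course. It was at 1.06, 0.0153, 1.00 and 4.88 RPKM, so that the 18 °C library stood far below the rest and the 28 °C library above them (log2 fold 1.51). The neutral amino acid carrier gene slc38a4 was at 8.36, 8.66, 5.23 and 1.12 RPKM, lowest at 28 °C. The aromatic amino acid carrier gene slc16a10 was lowest at 23 °C, at 4.47, 2.99, 1.09 and 2.31 RPKM. The cationic amino acid carrier gene slc7a2 and the large neutral amino acid carrier gene slc43a1 stayed below the minimum of the pair at every temperature. For slc7a2 the highest value was that of the 18 °C library, at 0.145, 0.540, 0.0862 and 0.117 RPKM. For slc43a1 the smallest whole-read readings were 30, 55, 36 and 122 reads, or 0.282, 0.515, 0.345 and 1.13 RPKM. The interval at 28 °C, 0.941 to 1.35 RPKM, lies above that at 12 °C, 0.190 to 0.403 RPKM.

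Among the 5 members with a maximum of at least 20 RPKM, the order of levels turned over with warming. In the 12 °C library slc3a2 was first, followed by slc25a12 at 36.7 RPKM and slc6a6, and the zinc carrier gene slc39a13 followed at 16.0 RPKM. At 28 °C slc39a13 was first, at 85.7 RPKM, and the nucleoside carrier gene slc29a1 second, at 36.8 RPKM, ahead of slc3a2. The taurine carrier was no longer among the first 6. These are levels per transcript length, and the distances between neighbours have no error estimate.

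**Figure D3:**
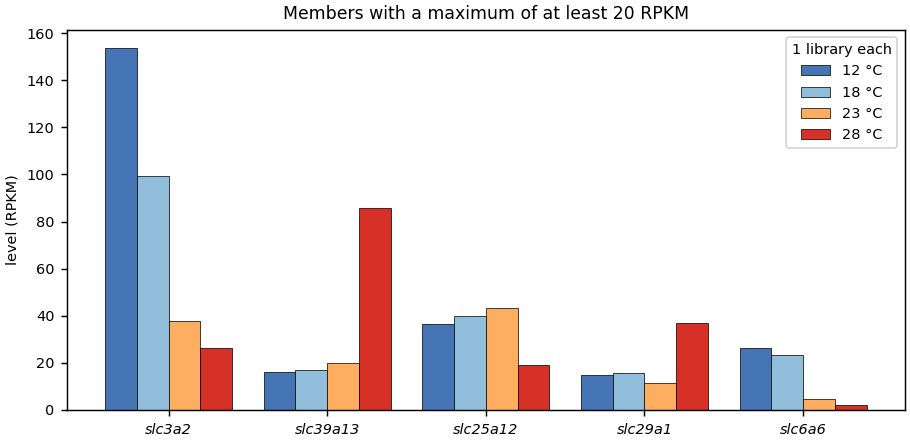
Level in RPKM (vertical axis) of the 5 members with a maximum of at least 20 RPKM (horizontal axis), with 1 bar per library at 12, 18, 23 and 28 °C. The gene slc3a2 goes from 153.6 to 26.1 RPKM and slc39a13 from 16.0 to 85.7 RPKM between 12 and 28 °C.

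All 6 metal carriers met the minimum at 28 °C, with 4 counted as higher (66.7%) and 1 as lower (16.7%), against 34.2% and 22.5% of all rows. At 18 and 23 °C 0 of 5 were apart in either direction. Of all rows, 7.66% were higher and 2.68% lower at 18 °C, and 2.98% and 10.8% at 23 °C. With shares this low, 0 of 5 does not set the group apart. The group's median log2 fold at 28 °C was 1.19. The gene slc39a13 encodes a carrier that releases zinc into the cytosol from the early secretory pathway, and its loss in humans causes a connective tissue disorder. It was at 16.0, 17.0, 20.1 and 85.7 RPKM from 12 to 28 °C, a log2 fold of 2.35 at 28 °C. The zinc exporter gene slc30a1, whose protein removes zinc from the cell, was at 0.711, 0.708, 0.475 and 9.41 RPKM (log2 fold 2.61). The 3 cooler libraries were all low, and the 28 °C library was 13.2 times the 12 °C level.

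The zinc carriers that load the secretory pathway moved by less. The gene slc30a5 was at 1.15, 1.34, 1.93 and 4.36 RPKM, and slc30a7 at 2.24, 2.55, 3.14 and 5.49 RPKM. Both were higher at each step, and slc30a7 lay at the 2-fold limit at 28 °C, counted as higher after median scaling but not as deposited (log2 fold 0.9995). The copper importer gene slc31a1 was at 1.65, 2.98, 1.39 and 4.58 RPKM, highest at 28 °C. The exception was slc40a1, which encodes the iron exporter ferroportin. It was at 3.70, 4.70, 3.82 and 1.13 RPKM, so that the 28 °C library was the lowest of the 4 (log2 fold -1.14).

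Members of the mitochondrial carrier family followed separate courses. At 28 °C 3 of 8 at the minimum were higher (37.5%) and 1 was lower (12.5%), against 34.2% and 22.5% of all rows, and the median log2 fold over the 9 was 0.29. The aspartate-glutamate carrier gene slc25a12, which belongs to the shuttle that moves reducing equivalents into the mitochondrion, was the most abundant. It was at 36.7, 39.8, 43.3 and 18.9 RPKM from 12 to 28 °C, and its log2 fold of -0.92 at 28 °C stayed within 2-fold. The gene slc25a25, which encodes a calcium-regulated carrier of ATP-magnesium and phosphate, was at 7.23, 18.2, 19.7 and 9.06 RPKM. It was the 1 member at least 2-fold higher at both 18 and 23 °C, with log2 folds of 1.22 and 1.33, and was near its 12 °C level at 28 °C.

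The 3 mitochondrial family members counted as higher at 28 °C were low in the cooler libraries. The gene slc25a53, whose substrate is not given here, was at 0.580, 1.33, 1.18 and 8.37 RPKM (log2 fold 2.57). The acylcarnitine carrier gene slc25a20, which brings fatty acids in for oxidation, was at 0.924, 0.920, 1.43 and 4.75 RPKM. The gene slc25a16, linked to coenzyme A transport, was at 0.942, 0.881, 0.688 and 4.08 RPKM. Lower at 28 °C was slc25a43, at 2.09, 0.844, 0.864 and 0.541 RPKM with a log2 fold of -1.01, a count that was lost after median scaling. The peroxisomal member slc25a17 was lowest at 23 °C, at 2.37, 1.38, 0.619 and 1.80 RPKM, and its count as lower there was lost after that scaling too. The basic amino acid carrier gene slc25a29 was at 1.22, 1.63, 0.756 and 0.627 RPKM and slc25a48 at 1.08, 1.95, 1.97 and 2.37 RPKM, neither of them counted at any temperature.

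The group of nucleotide sugar and other donor carriers differed both ways at 28 °C. Every member of it counted as lower at any temperature has no substrate assigned here. At 28 °C 2 of 8 members were counted as higher and 2 as lower (25% each), against 34.2% and 22.5% of all rows. At 23 °C 3 of 6 were lower and 0 higher, against 10.8% and 2.98%. The higher genes encode carriers with known donors. The gene slc33a1, whose protein takes acetyl-CoA into the endoplasmic reticulum, was at 0.653, 0.677, 0.496 and 4.03 RPKM (log2 fold 1.61). The gene slc35a2, whose protein takes UDP-galactose into the Golgi, was at 1.62, 1.37, 1.73 and 5.68 RPKM (1.35). The gene slc35b3, for a carrier of the sulfate donor, was on the same side (0.921, 0.986, 0.938 and 2.48 RPKM) but within 2-fold on the scale used.

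The lower genes of this group were slc35e4 and slc35f2, family 35 members to which no substrate is assigned here. The gene slc35e4 was at 15.9, 5.86, 2.65 and 1.82 RPKM from 12 to 28 °C, and was 1 of 2 members counted as lower at all 3 warmer temperatures. The gene slc35f2 was at 2.66, 1.46, 0.558 and 0.238 RPKM, 11.2 times lower at 28 than at 12 °C. A further member, slc35g1, was lowest at 23 °C, at 4.39, 2.58, 1.31 and 1.88 RPKM. On the RPKM + 1 scale the remaining members slc35a5 and slc35f5 were within 2-fold at all 3 temperatures, although not on plain RPKM ratios. Their values lay between 1.07 and 2.61 RPKM for slc35a5 and between 0.558 and 1.53 RPKM for slc35f5.

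Carriers of inorganic ions also differed both ways at 28 °C, with 2 of 5 higher and 2 lower (40% each), against 34.2% and 22.5% of all rows. The gene slc8b1 encodes the exchanger that releases calcium from mitochondria against sodium. It was at 14.0, 7.08, 3.50 and 3.04 RPKM, lower at each step, with a log2 fold of -1.89 at 28 °C. The phosphate carrier gene slc20a2 was at 7.64, 8.10, 5.22 and 1.95 RPKM (-1.55). The sulfate carrier gene slc26a2 was at 0.855, 0.877, 0.462 and 3.01 RPKM, with 28 °C above the other libraries (log2 fold 1.11).

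The sodium-proton exchanger gene slc9a5 was listed at 0 at 18 °C. Its 12 and 23 °C values were 0.0279 and 0.0284 RPKM, and the 28 °C value was 0.714 RPKM. Its smallest whole-read readings were 1, 1 and 26 reads at 12, 23 and 28 °C. The exchanger genes slc9a8 and slc9b2 were highest at 28 °C, at 2.40 and 1.38 RPKM, and in the cooler libraries were between 0.879 and 1.05 RPKM and between 0.200 and 0.407 RPKM. The scaffold gene slc9a3r1 was at 3.17, 2.85, 2.07 and 1.61 RPKM. The second row that is no carrier, slc7a6os, whose human counterpart takes part in the nuclear import of RNA polymerase, was at 11.1, 7.88, 4.57 and 2.61 RPKM. Without these 2 rows, the counts were 14 higher and 12 lower of 44 at 28 °C, and 1 higher and 11 lower of 33 at 23 °C.

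Sugar carriers had few members at the minimum, with 1 of 4 lower and 0 higher at 28 °C, against 22.5% and 34.2% of all rows. The gene slc45a4, of a family of proton-coupled sugar carriers, was at 2.71, 1.68, 1.22 and 0.547 RPKM, lower at each step. The glucose carrier gene slc2a12 had a similar order at lower levels, with 1.56, 0.787, 0.280 and 0.158 RPKM read as 136, 69, 24 and 14 reads. The intervals at 12 °C, 1.31 to 1.84 RPKM, and at 28 °C, 0.0865 to 0.266 RPKM, do not overlap, although the mean of this pair is below the minimum. The sugar phosphate carrier gene slc37a2 and the sugar efflux carrier gene slc50a1 reached 3.79 and 2.18 RPKM at 28 °C, from 1.43 and 0.633 RPKM in the 12 °C library, just within 2-fold on the scale used (0.98 and 0.96). The hexose carrier gene slc2a6 was highest at 12 °C, at 1.37, 0.634, 0.614 and 0.975 RPKM, and was not counted at any temperature.

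The liver-type glucose carrier gene slc2a2 was at 0.0364, 2.80, 0 and 0.251 RPKM from 12 to 28 °C, with smallest readings of 4, 309 and 28 reads at 12, 18 and 28 °C. The 23 °C value is a listed 0. It was the member with the largest positive log2 fold at 18 °C, 1.87. Of the excess over 12 °C that the 18 °C library showed, 7.78% was seen at 28 °C, and for slc25a25, the other member higher at 18 °C, 16.7%. For the 26 liver marker rows that were higher at 18 °C this share had a median of 9.56% and ranged from 4.32% to 25.04%. Both members lie within that wide range. At 23 °C slc25a25 was also high, at 19.7 RPKM, while the summed liver markers were at 63.5 RPKM, against 67.4 RPKM at 12 °C. The part of liver in the values of either gene was not tested. The fatty acid carrier gene slc27a6 was at 0.420, 1.78, 0.634 and 1.31 RPKM, read as 27, 115, 40 and 85 reads, high at 18 and 28 °C. The glucose 6-phosphate carrier gene slc37a4 was at 0.262, 0.684, 0.417 and 0.291 RPKM, highest at 18 °C.

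Among organic ion carriers, the 2 members of family 22 went opposite ways. The gene slc22a16, which encodes a carnitine carrier in humans, was at 8.59, 2.89, 1.30 and 0.765 RPKM from 12 to 28 °C. It was the second member counted as lower at all 3 warmer temperatures, 11.2 times lower at 28 than at 12 °C. The gene slc22a31 was at 0.314, 0.347, 0.201 and 8.01 RPKM, so that the 28 °C library alone was high. Its log2 fold of 2.78 was the largest of the 58 members. The monocarboxylate family member slc16a9 was highest at 18 °C, at 2.01, 4.59, 2.60 and 1.58 RPKM. The members slc17a5 and slc17a9, for sialic acid and vesicular nucleotides, stayed below the minimum of the pair. The first was at 0.946, 0.942, 0.594 and 0.507 RPKM and the second at 0.167, 0.594, 0.522 and 1.12 RPKM, lowest and highest at 28 °C respectively. The organic cation carrier gene slc47a1 was also below it, at 0.526, 0.215, 0.217 and 0.323 RPKM.

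Of the 4 carriers of vitamins and nucleosides 1 was higher at 28 °C and 0 were lower, against 34.2% and 22.5% of all rows. The nucleoside carrier gene slc29a1 was at 15.0, 15.5, 11.6 and 36.8 RPKM (log2 fold 1.24). The thiamine carrier gene slc19a2 was highest at 12 °C, at 2.07, 0.765, 0.491 and 0.680 RPKM, and was counted as lower at 23 °C as deposited but not after median scaling. The ascorbate carrier gene slc23a2 was at 0.638, 0.458, 0.440 and 1.83 RPKM and the folate carrier gene slc46a1 at 1.38, 1.09, 1.04 and 0.651 RPKM, both within 2-fold on the scale used.

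**Figure D4:**
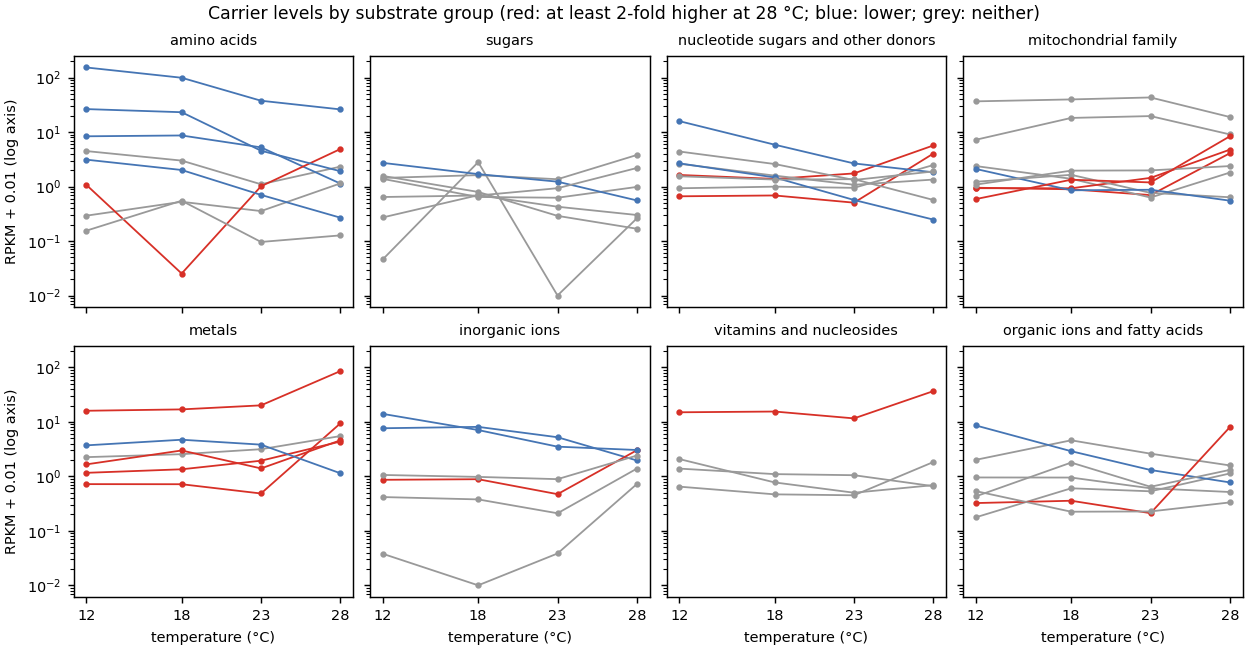
Levels as RPKM + 0.01 on a log axis (vertical) against water temperature in °C (horizontal) for 55 carriers in 8 substrate groups, with 1 line per gene and 1 library per point. Red lines were counted as higher and blue lines as lower at 28 °C, and grey lines as neither; most blue lines are below their 12 °C level at 23 °C, and the red lines are higher at 28 than at 23 °C.

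Of the 14 members higher at 28 °C, 13 (92.9%) were less than 2-fold away from 12 °C at 18 and at 23 °C on the RPKM + 1 scale, against 86.5% of all rows higher at 28 °C. The other was slc6a5, which was low at 18 °C. Among these 14, 8 were below the minimum of the pair at 18 °C and 6 at 23 °C, and could not be counted there. Of the 13 lower, 5 (38.5%) were less than 2-fold away at both temperatures, against 72.3% of all rows lower at 28 °C, and 8 were already counted as lower at 23 °C and 2 at 18 °C. On plain RPKM ratios the numbers less than 2-fold away were 12 of 14 and 3 of 13, against 71.9% and 58.3% of all rows. None of these differences in share was tested. Over all members, 13 of 58 (22.4%) were lower at each successive temperature, against 22.6% of all rows with the same minimum, and 5 (8.62%) were higher at each step, against 9.81%. Of the 5, 3 are the zinc carriers slc30a5, slc30a7 and slc39a13; the others are slc25a48 and slc50a1. After median scaling 8 members (13.8%) were higher at each step, among them the same 3 zinc carriers, against 14.8% of all rows with the same minimum. Lower at each step were 13 members (22.4%), against 14.5% of these rows, so the falling share no longer matched. This difference was not tested either. In the authors' deposited table the 14 higher members all stand in cluster 4 and the 13 lower members all in cluster 2 of 7. These clusters stand beside the values of the same libraries, so this placement is not separate evidence. How many of all higher or lower rows stand there was not counted. Of all 58, 24 (41.4%) are in cluster 4 and 22 (37.9%) in cluster 2, against 39.2% and 38.8% of all rows with the same minimum.

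A straight line on temperature was fitted with limma to log2(RPKM + 1) of all 4075 rows with at least 1 RPKM in 2 or more libraries. With Benjamini-Hochberg adjustment over these rows 0 passed, and the smallest adjusted p, 0.193, was shared by members such as slc35f2. At an unadjusted p under 0.05 there were 1038 rows, 7.39% of all rows with a positive and 18.1% with a negative slope. Among the 37 members fitted, 15 had a positive and 22 a negative slope, beside 1750 and 2325 of all 4075 rows. At the same unadjusted threshold 3 members had a positive and 11 a negative slope. The slope was -0.22 ± 0.045 (SE) log2 units per °C for slc6a6, -0.17 ± 0.035 for slc3a2 and -0.16 ± 0.029 for slc35e4. Positive slopes under the unadjusted threshold were 0.14 ± 0.046 for slc25a53, 0.09 ± 0.033 for slc25a20 and 0.08 ± 0.026 for slc30a5. That of slc39a13, 0.13 ± 0.053, did not pass it. The fit has 2 residual degrees of freedom for each gene, and a step confined to 28 °C counts in part as scatter. Rows high at 28 °C alone can also miss the filter of 1 RPKM in 2 libraries. For this reason slc22a31 and slc30a1 were not fitted. Without the filter 27 of 58 members had a positive and 31 a negative slope, beside 5923 and 5723 of 11646 rows. At the unadjusted threshold there were then 4 members with a positive and 12 with a negative slope.

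Partners that carriers depend on were listed apart: pump subunits, helper proteins, related organic anion carriers and regulators. Of 48 names, 13 are in the table and 6 met the minimum at each warmer temperature. None of the 6 was at least 2-fold apart at 18 or 23 °C. Of all rows, 7.66% were higher and 2.68% lower at 18 °C, and 2.98% and 10.8% at 23 °C. At 28 °C 1 of the 6 was higher and 2 were lower, against 34.2% and 22.5% of all rows. The gene of the sodium-potassium pump subunit atp1a2a, which maintains the gradient that the taurine and glycine carriers use, had 144.1, 125.5, 109.4 and 58.9 RPKM in the 4 libraries, lowest at 28 °C. The mitochondrial calcium uniporter gene mcu, whose channel lets calcium into the organelle from which the slc8b1 protein releases it, was at 7.78, 6.47, 5.32 and 2.30 RPKM. The higher gene was nedd4l, for a ubiquitin ligase that removes transport proteins from the cell surface, at 6.28, 5.27, 6.63 and 23.7 RPKM.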

How the data were processed

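The deposited table holds RPKM values per gene for 4 muscle libraries, made by the authors, per the file headers; per the submitters' processing notes TopHat2 and Cufflinks were involved. The build and gene models behind them: not given in the sources used here. How reads of near-identical genes were shared is not stated. The 3 comparison columns are headed as log2 values, but the deposited values match a natural log of the ratio of RPKM values with 1 added constant per column (tolerance 0.00001) in 11635, 11641 and 11633 of 11646 rows. The authors' constants correspond to factors of 0.942, 1.27 and 0.910 at 18, 23 and 28 °C, with RPKM below 0.01 set to 0.01. The authors' cluster number was used as deposited.

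Folds were log2((RPKM + 1)/(RPKM at 12 °C + 1)), counted at 2-fold where the pair of libraries averaged 1 RPKM or more. Alternatives were a pseudocount of 0.1, no minimum or one of 5 RPKM, median-ratio scaling and the authors' columns. Slopes were fitted with limma 3.58.1 in R 4.3.3, with moderated variances and a trend (two-sided). The fit was also run on simulated data with chosen slopes and scatter. These were not taken from the libraries, so that run does not show how well slopes like the members' are recovered. Named genes were the 10 largest at 28 °C and 5 at 18 and 23 °C in each direction, those reaching 20 RPKM and the 2 highest of each group; other members were named to complete their group, after their values were seen. The members, groups and lists were chosen with earlier results of these data known. Numbered IDs took symbols from a RefSeq gene table (ASM2471397v2), which matched 5836 of 7526. The values of 1 member are not reported here and are not drawn by gene, but it is in all counts. Python 3.11.15 with pandas 2.3.3 was used.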

Additional observations from a re-analysis of the deposited data

How the results depend on the processing

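Without a second library at any temperature the counts have no replicate check, and members near 1 RPKM depend on the minimum and pseudocount. At 18 °C, 2 members were higher. The count was 4 with a pseudocount of 0.1, 4 with the authors' columns and 1 of 12 at a minimum of 5 RPKM. It was 1 without the liver-enriched carriers, an alternative chosen after seeing the data. These were slc2a2, slc38a4 and slc43a1, from a list mostly based on mammals. Without them 12 of 45 members were lower at 28 °C. The 2 lower members at 18 °C became 5 with that pseudocount and 7 with the authors' columns. At 23 °C the authors' columns gave 3 higher members, and a minimum of 5 RPKM left 5 lower of the 11 that met it. At 28 °C this minimum left 3 higher and 5 lower of the 10 that met it, and the authors' columns gave 21 lower. Fewer members met this minimum, so the smaller counts of lower members at 23 and 28 °C are not smaller shares. With the authors' columns, 10.01% of all rows were higher and 9.76% lower at 18 °C, and 43.56% and 44.2% at 28 °C. For the members these shares were 10.26% and 17.95% at 18 °C, and 45.65% in each direction at 28 °C. Shares of all rows were not counted for the other pseudocount or minima. Members higher at 28 °C numbered 14 to 21 under the other alternatives. The members' median log2 folds at 18, 23 and 28 °C were -0.046, -0.425 and -0.0326 with the pseudocount of 0.1 and -0.019, -0.0465 and 0.00242 after median scaling. Among the 27 genes named by rule, no log2 fold at 28 °C changed sign or lost 2-fold under these alternatives, and 3 passed it with the pseudocount of 0.1. A smaller pseudocount can only enlarge a fold. The factor of the median scaling at 28 °C is only -0.02 on the log2 scale relative to 12 °C. This outcome was therefore fixed in advance and is no check of the folds. With limma 0 genes had a slope under every alternative. When 1 library was left out, members and all rows at an unadjusted p under 0.05 were counted again. Without the 12 °C library they were 5 of 33 members, beside 497 of 3720 rows. Without the 18 °C library they were 8 of 33, beside 373 of 3662. Leaving out 23 °C gave 13 of 36, beside 1117 of 3979, and leaving out 28 °C gave 14 of 34, beside 873 of 3763. The count of all rows thus moved too. No paired analysis was possible because each temperature has 1 library and the labels give no replicate numbers.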

Other observations

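A further 40 carrier rows with at least 0.5 RPKM in 1 or more libraries are listed under numbered IDs and took their symbol from RefSeq, so they are not members. Of the 24 at the minimum, 9 (37.5%) were counted as higher and 5 (20.8%) as lower at 28 °C, against 34.2% and 22.5% of all rows. At 23 °C 2 of 15 were higher and 2 lower (13.3% each), against 2.98% and 10.8% of all rows. The share of lower rows there was 34.3% among the members, so these further carriers did not repeat it. The largest positive fold was that of slc25a55a, a mitochondrial family gene, at 3.13, 3.63, 2.44 and 58.5 RPKM from 12 to 28 °C. The creatine carrier slc6a8 and the amino acid carrier slc7a8a, with log2 folds of 2.92 and -3.31 at 28 °C, are also in this set. The other genes below were chosen after their values were seen. The myo-inositol carrier gene slc5a3b, whose substrate is an osmolyte like taurine, was at 0.555, 0.509, 0.516 and 6.63 RPKM, high at 28 °C alone, where the taurine carrier slc6a6 was at its lowest. A further zinc carrier of family 30, slc30a6, was at 0.413, 0.412, 0.425 and 2.42 RPKM, on the same side as the 3 family 30 members. The ADP-ATP carrier gene slc25a5 was at 15.1, 28.0, 39.4 and 10.9 RPKM, highest at 18 and 23 °C like slc25a25, but within 2-fold at 18 °C (log2 fold 0.85). By contrast, the slc25a25 paralog slc25a25b was at 0.641, 0.479, 0.878 and 1.85 RPKM, lowest at 18 and highest at 28 °C. The paralog slc43a1b was at 5.002, 5.03, 2.24 and 1.06 RPKM, lowest at 28 °C, where slc43a1 was highest. None of these differences has a replicate.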
